A study of Mus musculus with 47 samples.

Results

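The genes of cholesterol and fatty acid synthesis were followed in 3 sorted cell fractions of the mouse mammary gland under ovarian hormones and 2 progesterone receptor antagonists. Of 33 listed genes, 32 were found among the 21980 gene symbols used, by matching the symbol. They comprised 16 genes of the sterol branch and 16 of the fatty acid branch, and all 32 passed the filter on low values in each fraction. HMGCS1, which makes the precursor of mevalonate, had no matching row and was not analysed here. The 47 RNA-seq libraries came from 20 ovariectomized FVB mice, so every group lacked its ovaries as the source of hormone, sham included. Mice received either sham treatment or hormone, given as E2+Progesterone (EP) or as EP combined with an antagonist, either telapristone acetate (EP+TPA) or mifepristone, also known as RU486 (EP+RU486), for 14 days. Doses and ages are not given in the sources used here. Luminal mature (LM), luminal progenitor (LP) and mammary stem cell (MSC) fractions were sorted by flow cytometry. Each fraction had 4 libraries per treatment, except 3 for LM with EP.

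Cells make cholesterol from acetyl-CoA through mevalonate, squalene and lanosterol, and they make fatty acids by carboxylating acetyl-CoA and extending the chain on fatty acid synthase. Both routes are switched on at the level of transcription by the sterol regulatory element-binding proteins, SREBF2 mainly for the sterol branch and SREBF1 mainly for the fatty acid branch. INSIG1 holds these factors in the endoplasmic reticulum when sterols are plentiful and is itself one of their targets. In the mammary gland, lipid synthesis is best known for its rise in the alveolar cells of pregnancy and lactation, where milk fat is made. Progesterone acts there on receptor-bearing luminal cells, which signal to their neighbours, and RU486 and telapristone acetate both block its receptor.

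Values are on the FPKM scale, which counts fragments relative to transcript length and library size, as deposited and then rescaled between libraries. A fold change is a difference of means on the log2(value + 1) scale and is given with its standard error (SE). A gene is said to have risen or fallen where limma's moderated test gave an adjusted p under 0.05, with Benjamini-Hochberg adjustment over all genes tested. The read depth behind each value is unknown, and the values of a library summed to 281351 to 349128 (LM), 297710 to 358375 (LP) or 217977 to 356258 (MSC). From lowest values shared within a gene, the deposited values appear to have been adjusted gene by gene in 3 separate sets of libraries (LM; LP with 6 MSC libraries; the other 10 MSC libraries), so levels in LM are not set against those in the other fractions. Each group member is a different mouse, and the 3 fractions share mice.

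The marker lists of the sorted fractions moved with treatment. In LM, the summed level of 10 luminal progenitor markers ran from 3666 to 10980 in sham, from 475.1 to 788.7 with EP and from 10530 to 13430 with EP+RU486. In the EP+TPA libraries of LM it was 9594 to 10270 in 3 mice and 665.7 in mouse 332. That library also stood with the EP libraries in its 20 proliferation genes, whose sum was 419.8 against 115.5 to 121.4 in the other 3, so the LM calls with EP+TPA are also given without it. The 10 luminal mature markers summed to 555.6 to 1321 in LM sham, 331.0 to 1540 with EP, 72.52 to 161.9 with EP+TPA and 46.04 to 96.25 with EP+RU486, where 6 to 7 of the 10 were at their lowest value. Sham mouse 301 held both the highest progenitor sum (10980) and the lowest mature sum (555.6) of the LM shams. The other LM shams lay between 3666 and 5545 for progenitor markers and between 998.8 and 1321 for mature markers. In LP, the progenitor markers summed to 8269 to 14540 in sham, 892.4 to 4176 with EP, 8080 to 10560 with EP+TPA and 7547 to 9935 with EP+RU486. The mature markers in LP summed to 289.4 to 532.8 in sham and 198.7 to 1238 with EP. With EP+TPA they summed to 114.0 to 135.0 and with EP+RU486 to 112.4 to 182.5. Of the LP EP libraries, mouse 311 held the highest progenitor sum (4176) and the lowest mature sum (198.7). The MSC libraries were uneven: 10 basal markers summed to between 17.59 and 9802, and 12 adipocyte markers to between 1.482 and 13190. In the EP+RU486 library of MSC mouse 313, 7 of the 10 basal markers were at their lowest value. Whether these shifts in marker genes account for any change in the lipid genes below was not tested. In bulk libraries, a lower share of a cell type and less RNA per cell cannot be told apart.

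The start regions of 4 genes are shown because these genes carry the patterns described next: FASN and MVK, which were higher with EP in LP cells, INSIG1, which was lower, and ELOVL6, which was higher in both antagonist groups than in sham or EP. Each sequence runs from 250 bases before to 50 bases after the gene's start, 5′ to 3′ on the gene's strand, from RefSeq on GRCm38.p6. Capitals mark the motif CCAAT, read on either strand, and the E-box described below them. CCAAT is the box bound by NF-Y, a known partner of the SREBP factors.
FASN (chr11:120824498-120824797, minus strand): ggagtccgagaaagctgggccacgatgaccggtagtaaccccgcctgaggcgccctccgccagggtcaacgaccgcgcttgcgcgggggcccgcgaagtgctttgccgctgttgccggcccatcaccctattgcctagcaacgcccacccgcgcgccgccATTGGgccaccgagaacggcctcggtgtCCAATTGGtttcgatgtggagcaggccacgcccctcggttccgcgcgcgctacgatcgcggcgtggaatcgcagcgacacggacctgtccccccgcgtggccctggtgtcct
MVK (chr5:114444019-114444318, plus strand): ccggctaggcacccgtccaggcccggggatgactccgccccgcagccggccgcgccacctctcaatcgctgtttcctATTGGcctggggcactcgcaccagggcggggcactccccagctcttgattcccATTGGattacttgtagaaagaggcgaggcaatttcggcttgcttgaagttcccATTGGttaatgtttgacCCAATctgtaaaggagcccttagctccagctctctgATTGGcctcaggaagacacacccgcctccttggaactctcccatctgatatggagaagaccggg
INSIG1 (chr5:28071162-28071461, plus strand): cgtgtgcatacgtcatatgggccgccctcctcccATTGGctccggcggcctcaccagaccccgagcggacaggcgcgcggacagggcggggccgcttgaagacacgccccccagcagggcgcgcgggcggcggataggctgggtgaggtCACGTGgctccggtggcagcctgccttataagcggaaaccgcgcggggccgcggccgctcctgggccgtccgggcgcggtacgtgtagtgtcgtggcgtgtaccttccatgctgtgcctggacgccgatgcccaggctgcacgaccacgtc
ELOVL6 (chr3:129532136-129532435, plus strand): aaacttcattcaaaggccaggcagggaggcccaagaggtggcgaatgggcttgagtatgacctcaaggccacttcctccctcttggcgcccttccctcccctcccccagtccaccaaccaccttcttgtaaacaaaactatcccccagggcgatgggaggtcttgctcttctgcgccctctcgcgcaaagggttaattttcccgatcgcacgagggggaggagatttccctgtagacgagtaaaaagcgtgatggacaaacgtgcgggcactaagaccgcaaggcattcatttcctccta

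Of the 32 genes, 26 had a start region in the RefSeq table, with 33 windows between them. FDPS, FDFT1, SQLE, SCD1, SCD2 and FADS1 had none and were not searched. CCAAT was found on either strand in 24 of the 33 windows (72.7%), against 37.4% of all 32851 windows. MVK held 5 such matches, FASN held 3, of which 2 overlap, INSIG1 held 1 and ELOVL6 held none. The E-box CACGTG, a palindrome, was in 5 of the 33 windows (15.2%) and in 7.15% of all windows, with 1 match in INSIG1. The sterol regulatory element TCACNCCAC was in none of the 33 windows and in 1.24% of all, and the progesterone receptor half-site AGAACA was in 3 of the 33 (9.09%) and in 18.97% of all. A match describes letters in a window and is not a measured site. Only the letters given were searched, so a window without a match may still hold a variant of the motif.

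**Figure D1:**
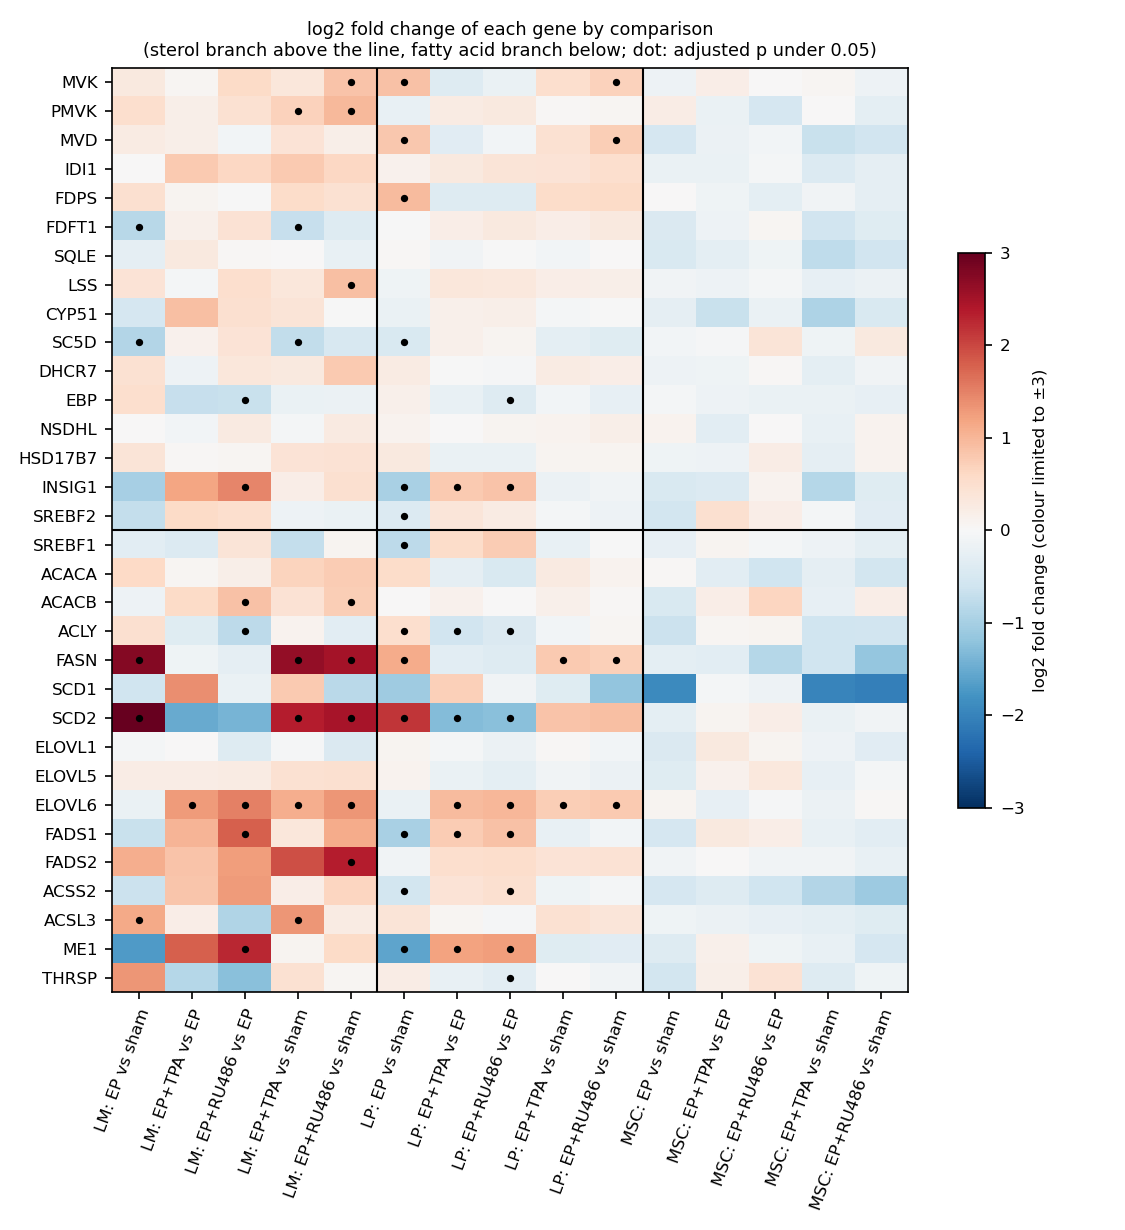
Colour map of the log2 fold change of the 32 genes (rows, sterol branch above the line) in 15 treatment comparisons (columns, by fraction), with a dot where the adjusted p was under 0.05. SCD2 and FASN hold the deepest colours in LM, and SCD2 and ME1 in LP. The MSC columns hold no dot.

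In LP cells, EP moved single steps of the sterol branch in opposite directions. The early genes FDPS, MVD and MVK rose, while INSIG1, SC5D and SREBF2 fell, so 3 of 16 sterol genes rose and 3 fell. The early genes PMVK and IDI1 did not pass the test. PMVK was at 9.49 ± 0.723 with EP against 11.2 ± 1.40 in sham (mean ± SD, n = 4 each). IDI1 was at 10.6 ± 3.04 against 9.35 ± 1.17 (mean ± SD, n = 4 each). Of all 11416 genes tested in LP, 16.7% rose and 16.0% fell in this comparison, so 6 calls among 16 genes is a share close to that of all genes. The median sterol gene was at 0.06 on the log2 scale, against 0.01 for all genes tested.

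MVK, mevalonate kinase, read 0.952, 2.20, 0.973 and 1.45 in the sham libraries, 3.30, 2.66, 3.26 and 4.17 with EP, 2.65, 2.70, 2.31 and 1.67 with EP+TPA and 2.13, 3.61, 2.49 and 3.04 with EP+RU486 (libraries are listed by rising mouse number throughout). The EP libraries all lay above the sham libraries (log2 fold change 0.88 ± 0.18, adjusted p = 0.00139). FDPS, which makes farnesyl pyrophosphate, read 26.6, 29.4, 18.4 and 24.6 in the sham libraries, 50.4, 33.4, 68.6 and 45.4 with EP, 30.4, 50.6, 29.9 and 38.3 with EP+TPA and 35.04, 44.97, 34.9 and 32.9 with EP+RU486. No EP library of FDPS overlapped a sham library (log2 fold change 0.94 ± 0.21, adjusted p = 0.0028). MVD, mevalonate diphosphate decarboxylase, read 3.54, 2.37, 1.65 and 2.27 in the sham libraries, 5.48, 3.15, 6.02 and 5.73 with EP, 2.71, 5.201, 3.23 and 3.97 with EP+TPA and 4.13, 6.29, 4.59 and 3.76 with EP+RU486. Its lowest EP library, mouse 311, lay below the highest sham library (log2 fold change 0.81 ± 0.21, adjusted p = 0.00734).

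INSIG1 read 15.4, 14.2, 9.497 and 10.4 in the sham libraries, 5.15, 9.76, 5.99 and 3.48 with EP, 8.85, 11.4, 8.96 and 14.4 with EP+TPA and 11.9, 11.8, 9.98 and 11.2 with EP+RU486. It fell with EP (log2 fold change -0.96 ± 0.22, adjusted p = 0.00401), although EP mouse 311 lay inside the sham range. SC5D, a late desaturase of the sterol ring, fell from 8.77 ± 0.949 in sham to 6.11 ± 1.17 with EP (SD, n = 4 each; log2 fold change -0.47 ± 0.15, adjusted p = 0.026). SREBF2 fell from 27.8 ± 1.91 to 20.9 ± 3.56 (SD, n = 4 each; log2 fold change -0.41 ± 0.13, adjusted p = 0.0268). The middle of the branch did not pass the test: FDFT1, which commits the route to squalene, was at 10.2 ± 2.38 against 10.02 ± 0.385 (mean ± SD, EP against sham, n = 4 each). Log2 fold changes with SE were for SQLE 0.03 ± 0.21, for LSS -0.13 ± 0.14 and for CYP51 -0.21 ± 0.23. Across the same libraries the 20 proliferation genes summed to 88.41 to 109.2 in sham and 265.7 to 456.0 with EP, and the part of this shift in the lipid genes was not tested.

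Of the fatty acid branch in LP, 3 of 16 genes were higher under EP and 4 lower, at a median of 0.05. Among all genes tested 16.7% rose and 16.0% fell. The share higher was thus close to that of all genes, and the share lower somewhat above it. FASN, ACLY and SCD2, which make and desaturate the chain, rose, while ME1, FADS1, ACSS2 and SREBF1 fell. FASN, the synthase itself, read 11.2, 10.3, 10.4 and 10.5 in the sham libraries, 23.4, 27.04, 21.9 and 23.6 with EP, 24.8, 16.1, 20.4 and 16.2 with EP+TPA and 22.8, 19.4, 17.2 and 13.8 with EP+RU486. The EP libraries lay between 21.9 and 27.04 and no sham library exceeded 11.2 (log2 fold change 1.10 ± 0.15, adjusted p = 5.57e-05). SCD2, a stearoyl-CoA desaturase, read 4.17, 8.25, 3.70 and 4.03 in the sham libraries, 30.3, 11.5, 24.8 and 41.8 with EP, 14.3, 9.46, 9.22 and 6.30 with EP+TPA and 14.4, 10.4, 8.46 and 7.11 with EP+RU486. Sham mouse 305 was the highest sham library and still lay below the lowest EP library (log2 fold change 2.15 ± 0.34, adjusted p = 0.000265). ACLY, which splits citrate into cytosolic acetyl-CoA, rose from 41.3 ± 3.79 to 58.7 ± 5.71 (SD, n = 4 each; log2 fold change 0.50 ± 0.11, adjusted p = 0.00249).

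ME1, malic enzyme, which supplies NADPH for chain building, read 72.3, 63.6, 77.97 and 75.02 in the sham libraries, 18.7, 41.1, 22.99 and 16.6 with EP, 61.2, 45.95, 60.3 and 56.05 with EP+TPA and 62.5, 58.2, 48 and 60.9 with EP+RU486. Sham and EP did not overlap, and EP mouse 311 was the EP library nearest to sham (log2 fold change -1.59 ± 0.20, adjusted p = 3.60e-05). FADS1, a desaturase of polyunsaturated chains, fell from 58.3 ± 7.95 to 30.2 ± 9.54 (SD, n = 4 each; log2 fold change -0.97 ± 0.22, adjusted p = 0.0032). ACSS2, which activates acetate, fell from 4.57 ± 0.675 to 2.81 ± 0.405 (SD, n = 4 each; log2 fold change -0.54 ± 0.16, adjusted p = 0.0155). SREBF1 fell from 55.5 ± 15.6 to 31.4 ± 5.26 (SD, n = 4 each; log2 fold change -0.78 ± 0.27, adjusted p = 0.035). SCD1, the desaturase related to SCD2, read 88.5, 60.9, 90.7 and 40.6 in the sham libraries, 32.2, 56.98, 26.5 and 19.1 with EP, 95.5, 30.8, 28.3 and 85.7 with EP+TPA and 46.97, 22.9, 21.1 and 29.5 with EP+RU486, and its lower EP mean did not pass the test (log2 fold change -1.08 ± 0.43, adjusted p = 0.0681).

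For EP against sham in LP, 9 of the 13 calls held without any single library. SREBF1 lost its call without sham mouse 305 or 326 or EP mouse 322 or 327 (adjusted p 0.0771 to 0.107), and ACSS2 without EP mouse 306 or sham mouse 326 (0.0512 to 0.0521). SC5D lost it without EP mouse 306, 322 or 327 or sham mouse 310 (0.0559 to 0.0837), and SREBF2 without sham mouse 301 or 310 or EP mouse 306, 311 or 327 (0.0555 to 0.0718). On the values as deposited, without rescaling, the median of all genes moved up by 0.24 and 80.6% of all calls were higher, against 51.1% after rescaling. There the falls of SREBF1 (-0.49, adjusted p = 0.175), ACSS2 (-0.32, adjusted p = 0.150), SC5D (-0.21, adjusted p = 0.275) and SREBF2 (-0.12, adjusted p = 0.456) were no longer called. Of the members, 13 were called higher and 3 lower on those values, in place of 6 and 7, and of all genes 34.0% and 8.17%.

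**Figure D2:**
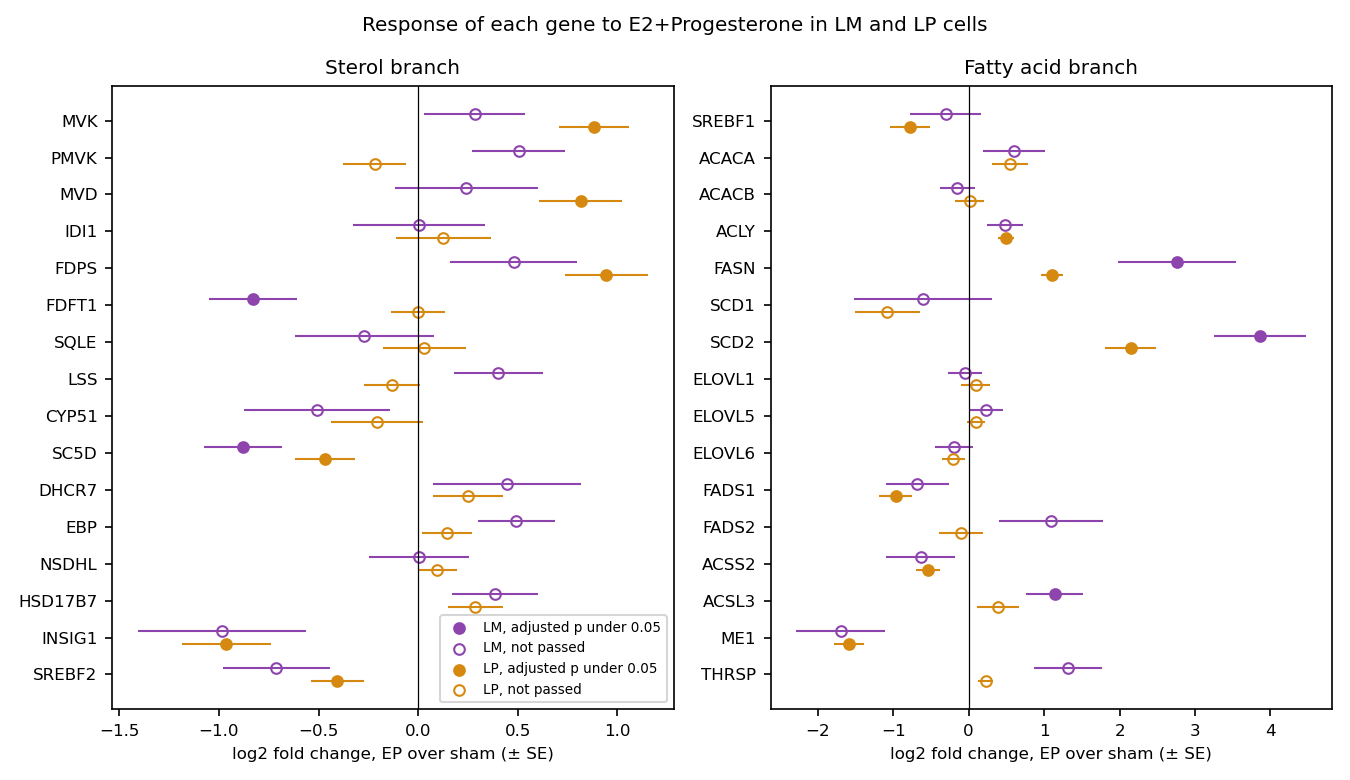
Log2 fold change of EP over sham for each gene in LM (purple) and LP (orange), by branch, with bars for 1 SE and filled points for an adjusted p under 0.05. FASN and SCD2 lie far to the right in both fractions, and INSIG1, SC5D, SREBF2 and ME1 lie left of 0 in both.

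Against EP, both antagonists moved mostly the fatty acid genes in LP, 5 of 16 with EP+TPA and 7 of 16 with EP+RU486. With EP+TPA, 1 sterol gene rose (INSIG1), 3 fatty acid genes rose (ELOVL6, ME1 and FADS1) and 2 fell (SCD2 and ACLY). With EP+RU486, INSIG1, ELOVL6, ME1, FADS1 and ACSS2 rose, and EBP, SCD2, ACLY and THRSP fell. Among all genes tested, 7.64% rose and 10.6% fell with EP+TPA, and 9.22% rose and 11.8% fell with EP+RU486. These comparisons share the EP libraries with EP against sham, and they share them with each other.

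ELOVL6, which extends palmitate, read 1.67, 1.89, 1.65 and 2.08 in the sham libraries, 1.28, 1.92, 1.78 and 0.935 with EP, 3.02, 3.55, 4.76 and 3.60 with EP+TPA and 3.62, 4.67, 3.17 and 4.22 with EP+RU486. Every antagonist library lay above every EP and sham library (log2 fold change 0.94 ± 0.15, adjusted p = 0.000473 for EP+TPA, and 0.999 ± 0.15, adjusted p = 0.000299 for EP+RU486). The ME1 values given above were higher than with EP in all 8 antagonist libraries (1.22 ± 0.20, adjusted p = 0.000686, and 1.26 ± 0.20, adjusted p = 0.000543). INSIG1 was 10.9 ± 2.62 against 6.09 ± 2.66 with EP+TPA against EP and 11.2 ± 0.886 against 6.09 ± 2.66 with EP+RU486 against EP (mean ± SD, n = 4 each; 0.80 ± 0.22, adjusted p = 0.0211, and 0.86 ± 0.22, adjusted p = 0.0131). EP+RU486 and EP did not overlap for INSIG1, whereas EP+TPA and EP did.

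SCD2 was lower than with EP in both antagonist groups (log2 fold change -1.29 ± 0.34, adjusted p = 0.0148, and -1.25 ± 0.34, adjusted p = 0.0167), with EP mouse 311 inside the antagonist range. ACLY fell to 39.1 ± 2.43 and 43.0 ± 4.98 (SD, n = 4 each; -0.57 ± 0.11, adjusted p = 0.00169, and -0.44 ± 0.11, adjusted p = 0.00827), and no antagonist library reached an EP library. FADS1 rose (0.75 ± 0.22, adjusted p = 0.0247, and 0.89 ± 0.22, adjusted p = 0.00877). With EP+RU486 alone, ACSS2 rose (0.49 ± 0.16, adjusted p = 0.0384) and EBP, the sterol isomerase, fell (-0.39 ± 0.13, adjusted p = 0.0375); the same values for EP+TPA were 0.42 ± 0.16 and -0.22 ± 0.13. THRSP, a small protein tied to lipogenesis, spanned 4.44 to 7.07 in all 16 LP libraries and was at 4.52 ± 0.0565 against 5.95 ± 0.891 with EP+RU486 against EP (mean ± SD, n = 4 each; -0.32 ± 0.10, adjusted p = 0.03). SREBF2 was at 0.36 ± 0.13 and 0.26 ± 0.13 and SREBF1 at 0.55 ± 0.27 and 0.75 ± 0.27, none of which passed the test.

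ELOVL6, ME1 and ACLY kept both calls without any single LP library, and INSIG1 and FADS1 kept theirs with EP+RU486. With EP+TPA, INSIG1 lost its call without EP mouse 306 or 327 or EP+TPA mouse 323 or 336 (adjusted p 0.0540 to 0.0686), FADS1 without EP mouse 322 or 327 or EP+TPA mouse 312 or 328 (0.0624 to 0.0844), and SCD2 without EP mouse 306 or 327 (0.0511 to 0.0515). With EP+RU486, SCD2 lost it without EP mouse 306 or 327 or EP+RU486 mouse 329 (0.0516 to 0.0553), and EBP, THRSP and ACSS2 lost theirs without any of 5 or 6 of the 8 libraries (up to 0.112, 0.108 and 0.108). On the deposited values 19.9% of all calls were higher with EP+TPA and 26.9% with EP+RU486, against 41.9% and 43.9% after rescaling, and FADS1 with EP+TPA and ACSS2 with EP+RU486 lost their calls (adjusted p = 0.0751 and 0.102). The members called there were 3 higher and 6 lower with EP+TPA, in place of 4 and 2, and 4 higher and 6 lower with EP+RU486, in place of 5 and 4.

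Against sham, 2 of the 32 genes were called in LP with EP+TPA and 4 with EP+RU486, all higher. Taken over both directions, these shares were close to those of all genes, given below. FASN and ELOVL6 rose in both groups: FASN to 19.4 ± 4.16 with EP+TPA and 18.3 ± 3.80 with EP+RU486, from 10.6 ± 0.432 in sham (SD, n = 4 each; log2 fold change 0.79 ± 0.15, adjusted p = 0.00496, and 0.71 ± 0.15, adjusted p = 0.00641). All 8 antagonist libraries lay above the highest sham library for FASN. ELOVL6 was higher likewise (0.73 ± 0.15, adjusted p = 0.00845, and 0.79 ± 0.15, adjusted p = 0.00332), and EP alone against sham was at -0.20 ± 0.15, which did not pass. EP+RU486 also raised MVK (0.69 ± 0.18, adjusted p = 0.0203) and MVD (0.73 ± 0.21, adjusted p = 0.0365), where EP+TPA was at 0.50 ± 0.18 (adjusted p = 0.122) and 0.47 ± 0.21. The next sterol gene by p with EP+TPA was FDPS (0.56 ± 0.21, adjusted p = 0.139). No member fell, while among all genes 1.94% rose and 3.48% fell with EP+TPA, and 4.63% rose and 6.37% fell with EP+RU486. INSIG1 was at -0.17 ± 0.22 and -0.11 ± 0.22, SCD2 at 0.85 ± 0.34 and 0.89 ± 0.34 and SCD1 at -0.36 ± 0.43 and -1.19 ± 0.43, which did not pass. The 4 calls for FASN and ELOVL6 held without any single library. MVK lost its call without sham mouse 301 or 310 or EP+RU486 mouse 308 (adjusted p 0.0670 to 0.0751) and MVD without any of 6 of the 8 libraries (0.0576 to 0.123). On the deposited values the share of all calls that were higher was 64.6% with EP+TPA and 75.4% with EP+RU486, against 35.9% and 42.1%.

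**Figure D3:**
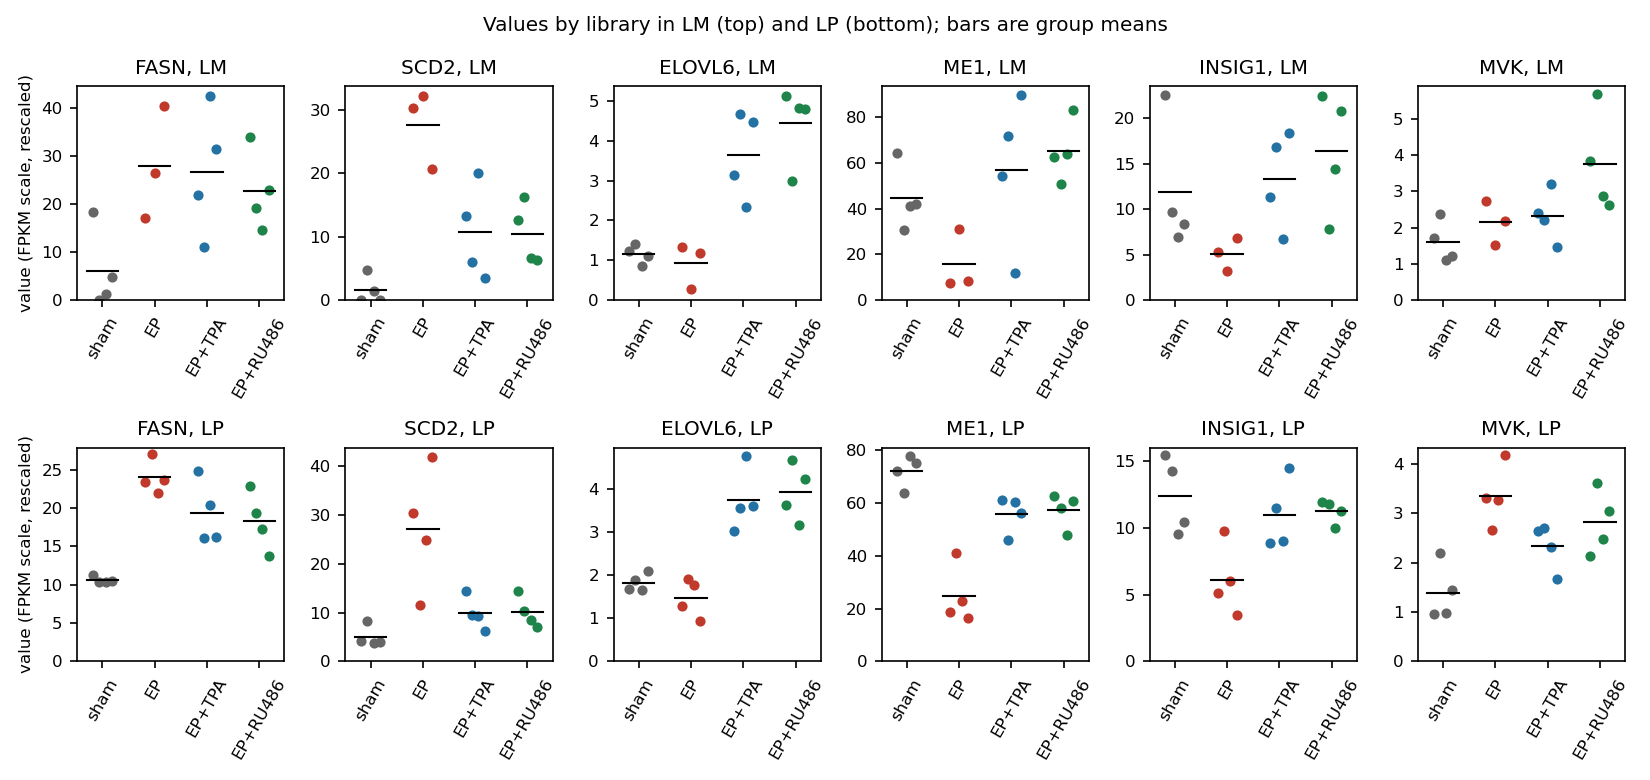
Value of 6 genes in every LM (top) and LP (bottom) library, on the rescaled FPKM scale with linear axes from 0; points are libraries and bars group means. Every antagonist library of ELOVL6 lies above every sham and EP library, the means of ME1 and INSIG1 are lowest with EP, and the LM library of EP+TPA mouse 332 is the low EP+TPA point for ME1 (12.04) and INSIG1 (6.71).

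In LM cells, EP raised FASN, SCD2 and ACSL3 of the fatty acid branch and lowered FDFT1 and SC5D of the sterol branch. No sterol gene rose and no fatty acid gene fell by the test, while 10.2% of the 11882 genes tested rose and 9.43% fell. These 5 calls among 32 genes are a smaller share than among all genes, so no split between the branches is read from them. The branch medians were 0.12 for sterol and 0.09 for fatty acid genes, against -0.02 for all genes. SCD2 read 0.0452, 4.70, 1.35 and 0 in the sham libraries, 30.3, 32.2 and 20.6 with EP, 13.2, 6.07, 20.1 and 3.45 with EP+TPA and 12.6, 16.3, 6.70 and 6.33 with EP+RU486. All 3 EP libraries lay far above the sham libraries, of which 2 were at or next to 0 (log2 fold change 3.87 ± 0.61, adjusted p = 0.00118). FASN read 18.4, 0, 1.35 and 4.86 in the sham libraries, 17.03, 26.4 and 40.5 with EP, 21.8, 11, 42.5 and 31.6 with EP+TPA and 33.98, 19.2, 14.5 and 22.9 with EP+RU486, and the spread in sham was wide, with mouse 301 inside the EP range (log2 fold change 2.76 ± 0.78, adjusted p = 0.0266). ACSL3, which activates long chains for lipid droplets, read 30.9, 17.8, 13.2 and 19.8 in the sham libraries, 45.7, 48.8 and 38.5 with EP, 47.6, 33.9, 43.3 and 93.5 with EP+TPA and 26.9, 11.03, 27.3 and 35.7 with EP+RU486, without overlap between EP and sham (log2 fold change 1.14 ± 0.38, adjusted p = 0.0472).

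FDFT1, squalene synthase, read 12.9, 19.3, 19.5 and 15.1 in the sham libraries, 8.63, 10.6 and 7.58 with EP, 9.31, 11.4, 7.56 and 11.8 with EP+TPA and 15.47, 8.70, 12.3 and 14.2 with EP+RU486. Every EP library of FDFT1 lay below every sham library (log2 fold change -0.83 ± 0.22, adjusted p = 0.0181). SC5D read 11.4, 9.95, 13.8 and 9.78 in the sham libraries, 5.26, 6.33 and 5.27 with EP, 6.09, 5.91, 6.04 and 7.06 with EP+TPA and 8.61, 5.44, 7.66 and 9.99 with EP+RU486, again without overlap (log2 fold change -0.88 ± 0.19, adjusted p = 0.00658). INSIG1 read 22.6, 9.62, 6.96 and 8.33 in the sham libraries, 5.23, 3.22 and 6.81 with EP, 11.3, 16.9, 6.71 and 18.4 with EP+TPA and 22.4, 7.85, 14.4 and 20.8 with EP+RU486, and SREBF2 46.4, 19.1, 26.5 and 26.4 in the sham libraries, 18.1, 15.4 and 16.9 with EP, 19.97, 21.5, 22.96 and 41.1 with EP+TPA and 26.4, 20.4, 24.4 and 26.3 with EP+RU486. Their EP libraries lay below all sham libraries, but sham mouse 301 was far above the other shams and neither passed the test (INSIG1 -0.98 ± 0.42, adjusted p = 0.114, SREBF2 -0.71 ± 0.27, adjusted p = 0.0732). ME1, at 7.32, 31.1 and 8.39 with EP and 64.4, 30.6, 41.1 and 42.2 in sham, was also lower without passing (-1.70 ± 0.59, adjusted p = 0.0586). SREBF1 was at -0.31 ± 0.47. SCD1 read 217, 28.4, 80.7 and 15.8 in the sham libraries, 42.2, 37.1 and 26.6 with EP, 323, 30.9, 36.9 and 200 with EP+TPA and 17.4, 33.7, 28.9 and 49.2 with EP+RU486, and its highest libraries were EP+TPA mouse 312, sham mouse 301 and EP+TPA mouse 336. The adipocyte gene ADIPOQ was at 3.46 in sham mouse 301 and 5.30 in EP+TPA mouse 312 but at 0 in EP+TPA mouse 336, and the part of adipocyte RNA in SCD1 was not tested. The 20 proliferation genes summed to 62.32 to 93.59 in LM sham and 208.3 to 487.6 with EP, and their part was not tested either.

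For EP against sham in LM, SCD2 and SC5D kept their calls without any single library. FASN lost its call without EP mouse 306, 311 or 327 or sham mouse 310 (adjusted p 0.0515 to 0.123), ACSL3 without any of 6 of the 7 libraries (0.0841 to 0.129), and FDFT1 without EP mouse 306 or 327 or sham mouse 310 (0.0541 to 0.0946). Without sham mouse 301, 6 members were called, 4 higher and 2 lower, where 8.85% of all genes were higher and 7.73% lower. On the deposited values 68.8% of all calls were higher, against 52.0% after rescaling, and FDFT1 was at -0.64 (adjusted p = 0.0555).

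Adding RU486 to EP in LM cells raised INSIG1 and 4 fatty acid genes (ELOVL6, FADS1, ACACB and ME1) and lowered EBP and ACLY. Adding TPA raised ELOVL6 alone among the 32 genes. Of all genes, 8.93% rose and 9.1% fell with EP+RU486 against EP, and 1.3% rose and 3.26% fell with EP+TPA. ELOVL6 read 1.23, 1.41, 0.848 and 1.10 in the sham libraries, 1.32, 0.280 and 1.19 with EP, 3.15, 4.68, 2.33 and 4.46 with EP+TPA and 5.13, 2.99, 4.83 and 4.79 with EP+RU486. No antagonist library overlapped EP or sham (log2 fold change 1.28 ± 0.25, adjusted p = 0.00953 with EP+TPA, and 1.52 ± 0.25, adjusted p = 0.0018 with EP+RU486). ACACB, the acetyl-CoA carboxylase tied to mitochondria, read 1.25, 0.383, 1.08 and 0.988 in the sham libraries, 0.513, 0.672 and 0.968 with EP, 1.87, 2.26, 1.08 and 1.15 with EP+TPA and 1.53, 3.33, 1.92 and 2.05 with EP+RU486. It rose with EP+RU486 (0.88 ± 0.23, adjusted p = 0.0175), and with EP+TPA it was at 0.57 ± 0.23.

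ME1 rose with EP+RU486 to 65.2 ± 13.5 (SD, n = 4) from 15.6 ± 13.4 (SD, n = 3; log2 fold change 2.26 ± 0.59, adjusted p = 0.019). With EP+TPA it read 54.2, 71.9, 12.04 and 89.6, of which 12.04 was mouse 332 (1.78 ± 0.59, adjusted p = 0.098). FADS1 rose to 71.8 ± 8.54 from 21.9 ± 10.6 (SD, n = 4 and 3; 1.79 ± 0.42, adjusted p = 0.011), and INSIG1 to 16.4 ± 6.64 from 5.09 ± 1.80 (1.46 ± 0.42, adjusted p = 0.0282). ACLY fell to 34.6 ± 4.78 from 61.3 ± 15.2 (-0.79 ± 0.23, adjusted p = 0.0297), and EBP to 17.2 ± 2.39 from 28.3 ± 7.82 (-0.66 ± 0.19, adjusted p = 0.0284). With EP+TPA the 2 sterol genes with the smallest p were EBP (-0.69 ± 0.19, adjusted p = 0.0535) and INSIG1 (1.19 ± 0.42, adjusted p = 0.115). SCD2 was at -1.52 ± 0.61 with EP+TPA and -1.39 ± 0.61 with EP+RU486, SREBF2 at 0.56 ± 0.27 and 0.51 ± 0.27, SREBF1 at -0.40 ± 0.47 and 0.39 ± 0.47, and SCD1 at 1.40 ± 0.91 and -0.19 ± 0.91; none of these passed.

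Without EP+TPA mouse 332, 6 genes were called for EP+TPA against EP in LM in place of 1, and of all genes 9.68% were then higher and 9.16% lower, in place of 1.30% and 3.26%. INSIG1 (1.46, adjusted p = 0.0242), ACSS2 (1.36, adjusted p = 0.00472), ME1 (2.40, adjusted p = 0.00137) and ELOVL6 (1.43, adjusted p = 0.000945) were higher there. EBP (-0.67, adjusted p = 0.0340) and SCD2 (-1.88, adjusted p = 0.0468) were lower. With EP+RU486, ELOVL6 and FADS1 kept their calls without any single library. INSIG1 and ACLY lost theirs without any of 5 of the 7 libraries (adjusted p 0.0537 to 0.106 and 0.0561 to 0.135), EBP without EP mouse 311 or EP+RU486 mouse 308 (0.0782 to 0.131), ACACB without EP mouse 306 or EP+RU486 mouse 313 (0.0519 to 0.0687), and ME1 without EP mouse 306 or 327 (0.0777 to 0.0791). Fitted with the EP and EP+TPA libraries alone, ELOVL6 was no longer called (adjusted p = 0.133). On the deposited values 30.3% of all calls were higher with EP+RU486 against EP, against 49.5% after rescaling, and 5 members were higher and 4 lower in place of 5 and 2.

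Compared with sham, LM cells given EP with an antagonist held higher FASN, SCD2 and ELOVL6 in both groups. EP+TPA against sham also raised ACSL3 and PMVK and lowered FDFT1 and SC5D, and EP+RU486 against sham raised PMVK, LSS, MVK, FADS2 and ACACB and lowered no member. Among all genes, 6.72% rose and 9.48% fell with EP+TPA, and 10.3% rose and 11.5% fell with EP+RU486. FASN was at 2.63 ± 0.72, adjusted p = 0.0262, and 2.48 ± 0.72, adjusted p = 0.0272; SCD2 at 2.35 ± 0.57, adjusted p = 0.0126, and 2.47 ± 0.57, adjusted p = 0.00751; ELOVL6 at 1.09 ± 0.23, adjusted p = 0.00479, and 1.33 ± 0.23, adjusted p = 0.000932, in that order of antagonist. PMVK, phosphomevalonate kinase, read 7.79, 8.78, 4.04 and 6.07 in the sham libraries, 9.91, 7.83 and 11.2 with EP, 9.36, 13.5, 11.01 and 10.2 with EP+TPA and 13.2, 10.2, 15.9 and 15.7 with EP+RU486, and both antagonist groups lay above sham (0.68 ± 0.22, adjusted p = 0.0434, and 0.97 ± 0.22, adjusted p = 0.00564). LSS, which closes the lanosterol ring, read 2.38, 2.71, 1.68 and 1.90 in the sham libraries, 2.43, 3.82 and 3.34 with EP, 2.85, 4.04, 1.89 and 3.51 with EP+TPA and 5.82, 5.77, 3.81 and 4.32 with EP+RU486, where EP+RU486 lay above sham (0.90 ± 0.21, adjusted p = 0.00623) and EP+TPA was at 0.34 ± 0.21.

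MVK rose with EP+RU486 to 3.75 ± 1.39 from 1.60 ± 0.576 in sham (SD, n = 4 each; log2 fold change 0.85 ± 0.23, adjusted p = 0.0182). FADS2 rose to 114.4 ± 21.9 from 33.9 ± 39.2 (2.34 ± 0.63, adjusted p = 0.0191), with sham mouse 301 at 91.5 and the other shams between 8.22 and 25.7. ACACB was at 0.73 ± 0.21, adjusted p = 0.0248 with EP+RU486. FDFT1 and SC5D stayed below sham with EP+TPA (-0.68 ± 0.21, adjusted p = 0.0343, and -0.74 ± 0.18, adjusted p = 0.0111), and ACSL3 above it (1.33 ± 0.35, adjusted p = 0.0184). With EP+RU486 these 3 were at -0.38 ± 0.21, -0.47 ± 0.18 and 0.25 ± 0.35. INSIG1, SREBF2, SREBF1 and SCD1 did not pass against sham in either group, at 0.21, -0.15, -0.71 and 0.79 with EP+TPA and 0.47, -0.20, 0.08 and -0.80 with EP+RU486.

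SC5D, SCD2 and ELOVL6 with EP+TPA, and PMVK, LSS, SCD2 and ELOVL6 with EP+RU486, kept their calls without any single library. FASN lost its calls without any of 5 of the 8 libraries in either comparison (adjusted p up to 0.0797 and 0.0801). PMVK with EP+TPA lost it without any of 6 of the 8 libraries (0.0528 to 0.147) and FDFT1 without any of 5 (0.0658 to 0.104). ACSL3 lost it without sham mouse 310 or EP+TPA mouse 336 (0.0521 to 0.0642). With EP+RU486, MVK lost it without sham mouse 310 or 326 or EP+RU486 mouse 313 (0.0589 to 0.0657), FADS2 without the same 3 (0.0527 to 0.0617), and ACACB without sham mouse 305 or 326 or EP+RU486 mouse 313 (0.0512 to 0.0869). Without EP+TPA mouse 332, the calls against sham were ACSL3 (1.41, adjusted p = 0.0241), SCD2 (1.98, adjusted p = 0.0312), ELOVL6 (1.24, adjusted p = 0.00198) and SC5D (-0.73, adjusted p = 0.0194), where 7.35% of all genes were higher and 8.93% lower. Without sham mouse 301, 9 members were called with EP+TPA (7 higher and 2 lower) and 9 with EP+RU486 (all higher). Of all genes, 7.83% were then higher and 10.48% lower with EP+TPA, and 9.66% and 10.51% with EP+RU486.

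Outside the 32 genes, lipid genes on lists of the same pathways were fitted alike. As above, 16.7% of all genes rose and 16.0% fell with EP in LP. There, 5 of 9 other fatty acid synthesis genes rose and 1 fell, among them TECR, the last enzyme of each elongation round (0.59 ± 0.13, adjusted p = 0.00283), and HSD17B12, the second (0.51 ± 0.13, adjusted p = 0.00566), while ACSL1 fell (-1.08 ± 0.21, adjusted p = 0.00113). Of 19 uptake and triglyceride genes, 4 rose and 4 fell, with PLIN2, the lipid droplet coat, falling from a mean of 380.1 to 116.8 (-1.81 ± 0.27, adjusted p = 0.000159) and PNPLA2, the droplet lipase, falling as well (-0.96 ± 0.18, adjusted p = 0.000734). SOAT1, which esterifies cholesterol, rose from 0.878 to 4.11 (1.23 ± 0.32, adjusted p = 0.00891). It was lower than with EP in both the EP+TPA (-1.39 ± 0.32, adjusted p = 0.00743) and the EP+RU486 group (-1.42 ± 0.32, adjusted p = 0.00621). MYLIP, which sends lipoprotein receptors for degradation, fell with EP (-1.32 ± 0.30, adjusted p = 0.00355). Of 15 oxidation genes, 3 rose and 1 fell, ACADM being the one that fell (-0.69 ± 0.14, adjusted p = 0.00143). Of 10 genes of SREBP control and lipoprotein uptake 1 rose and 3 fell, of 9 other sterol synthesis genes 1 rose and 1 fell, and of 10 sterol efflux genes 1 rose and 1 fell. For comparison, 19 of 20 proliferation genes rose with EP in LP.

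In LM with EP, 6 of 20 uptake and triglyceride genes rose and 1 fell, where 10.2% of all genes rose and 9.43% fell. FABP5, a fatty acid carrier, rose from 6.14 to 83.2 (log2 fold change 3.54 ± 0.51, adjusted p = 0.000715), and LPL, which frees fatty acids from lipoproteins, from 10.2 to 44.6 (1.79 ± 0.46, adjusted p = 0.015). DGAT2, which makes triglyceride, had a mean of 52.8 in sham, 18.3 with EP, 1.54 with EP+TPA and 0.415 with EP+RU486, and the antagonist groups were lower than sham (-4.55 ± 0.50, adjusted p = 4.47e-05, and -5.32 ± 0.50, adjusted p = 8.86e-06) and than EP (-2.86 ± 0.54, adjusted p = 0.00922, and -3.63 ± 0.54, adjusted p = 0.00128). SOAT1 fell with both antagonists against EP (-1.33 ± 0.33, adjusted p = 0.0337, and -1.92 ± 0.33, adjusted p = 0.00223). Of 9 other sterol synthesis genes, 1 fell with EP against sham, MSMO1, a lanosterol demethylation enzyme (-1.05 ± 0.35, adjusted p = 0.0462). Of 10 genes of SREBP control and lipoprotein uptake 3 rose and 1 fell, and of 11 sterol efflux genes 1 rose. None of 10 other fatty acid synthesis genes passed in either direction with EP. The 20 proliferation genes rose in 19 cases with EP in LM.

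The 2 antagonists were compared with each other at the same 14 days; their doses are not given, so the comparison is of the groups as treated. Both are steroidal progesterone receptor antagonists. Over the 3 fractions, 3 such pairs of groups were compared, each adjusted over all genes tested. No member passed in LM, LP or MSC by limma, where at an unadjusted p under 0.05 there were 3, 0 and 0 members, and weighting the libraries also gave 0 in each. Over all genes, 1581 of 11882 in LM, 204 of 11416 in LP and 200 of 12188 in MSC were under that unadjusted threshold. By adjusted p, 0.0% of all genes were higher and 0.0% lower in each fraction. In LM, ACSL3 was higher with EP+TPA by 1.09, 95% confidence interval 0.34 to 1.84 (adjusted p = 0.329), and the difference for LSS was -0.56, 95% confidence interval -0.99 to -0.12 (adjusted p = 0.336), on the log2 scale. MVK (-0.50, adjusted p = 0.375) and ELOVL1 (0.41, 95% confidence interval -0.03 to 0.86) came next. Without EP+TPA mouse 332, no member and no other gene passed in LM, and ACSL3 was at 1.16, LSS at -0.40, MVK at -0.62 and ELOVL1 at 0.45 (adjusted p 0.515 to 0.539).

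In LP the differences between the antagonists ran from -0.26 to 0.17 in the sterol branch and from -0.20 to 0.83 in the fatty acid branch, and every one of the 32 intervals held 0. The median 95% half-width was 0.36 for sterol and 0.42 for fatty acid genes in LP. ELOVL6 differed by -0.06, 95% confidence interval -0.38 to 0.26, FASN by 0.08, 95% confidence interval -0.24 to 0.39, INSIG1 by -0.06, 95% confidence interval -0.54 to 0.42 and ME1 by -0.04, 95% confidence interval -0.47 to 0.39. The smallest p in the sterol branch belonged to EBP (0.17, 95% confidence interval -0.10 to 0.44) and MVD (-0.26, 95% confidence interval -0.71 to 0.18), and in the fatty acid branch to SCD1 (0.83, 95% confidence interval -0.09 to 1.75) and ACLY (-0.13, 95% confidence interval -0.36 to 0.10). In LM the median half-widths were 0.51 and 0.86, and in MSC 0.49 and 1.07. A p above the threshold does not show that the antagonists act alike.

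**Figure D4:**
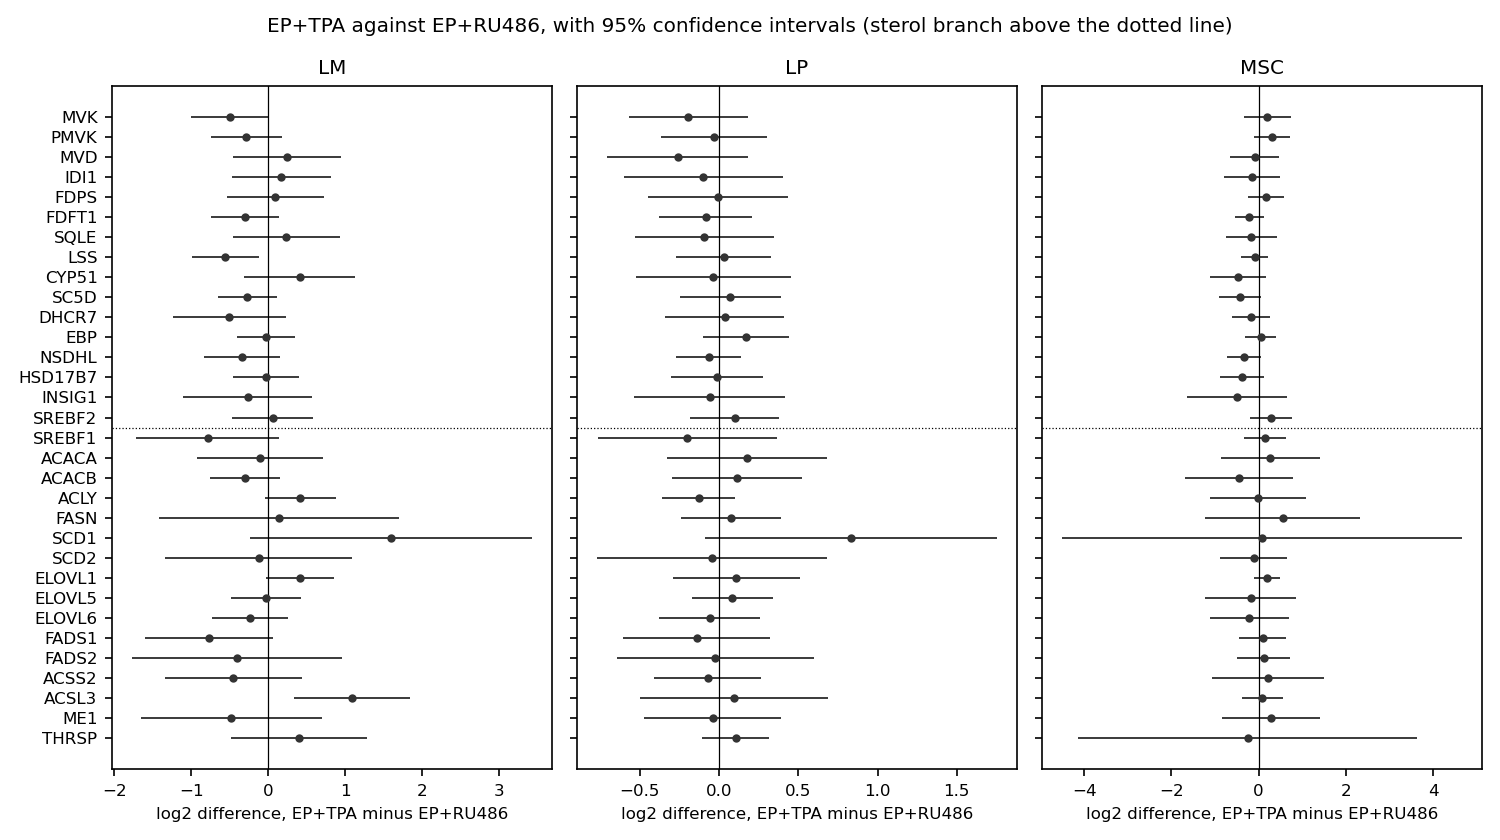
Difference between EP+TPA and EP+RU486 for each gene (log2 scale, points) with its 95% confidence interval (bars), in LM, LP and MSC. In LP all 32 intervals cross 0 and most points lie close to it, while SCD1 and THRSP in MSC have the widest intervals.

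In MSC cells no member passed the test in any of the 6 treatment comparisons by limma. At an unadjusted p under 0.05 there were 3 members for EP against sham, 1 each for EP+TPA and EP+RU486 against EP, 4 each for EP+TPA and EP+RU486 against sham and 0 between the antagonists. Of the 12188 genes tested, the counts at that unadjusted threshold were, in the same order, 655, 851, 592, 410, 414 and 200. By adjusted p no other gene passed: 0.0% of the 12188 genes tested rose and 0.0% fell in every comparison. Weighting the libraries gave 2 lower members for EP against sham, one of them ELOVL1 (-0.34, adjusted p = 0.0287), and 0 in the other 5 comparisons. With those weights 4.18% of all genes rose and 4.73% fell for EP against sham. The MSC libraries of mice 305, 306, 308, 322, 323 and 324 were adjusted with LP and the other 10 apart from them, so the fit carried the set as a term, while the order of single MSC values given below runs across both sets. Against sham, the medians were below 0 in both branches: -0.14 and -0.38 (sterol, fatty acid) with EP, -0.26 and -0.25 with EP+TPA, and -0.27 and -0.33 with EP+RU486, where the median of all genes lay between -0.03 and 0.02. The comparisons with sham share the same sham libraries, so their medians are not separate results. Sham mice 305, 310 and 334 were among the 4 MSC libraries with the highest adipocyte marker sums, given below. The 20 proliferation genes summed to 141.2 to 202.5 in MSC sham and 221.4 to 300.2 with EP.

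The MSC sterol genes with the smallest p across the 4 treatments were FDFT1, CYP51, SQLE and MVD. FDFT1 read 13.4, 10.9, 13.5 and 16.2 in the sham libraries, 8.25, 9.67, 10.3 and 9.75 with EP, 8.48, 6.82, 8.92 and 10.9 with EP+TPA and 9.23, 8.91, 9.96 and 11.9 with EP+RU486. Sham lay above EP without overlap and overlapped EP+RU486 through mouse 329 (log2 fold change -0.43 ± 0.16, adjusted p = 0.847 for EP, -0.57 ± 0.15, adjusted p = 1 for EP+TPA, -0.36 ± 0.16, adjusted p = 1 for EP+RU486). CYP51, which demethylates lanosterol, read 19.03, 11.4, 13.5 and 12.7 in the sham libraries, 5.39, 12.03, 20.9 and 13.5 with EP, 6.56, 6.40, 6.17 and 8.28 with EP+TPA and 11.2, 8.64, 12.8 and 8.44 with EP+RU486, with EP+TPA below sham in all 4 libraries (-0.93 ± 0.30, adjusted p = 1) and at -0.67 ± 0.30 against EP. SQLE, squalene epoxidase, read 32.7, 27.7, 33.2 and 33.9 in the sham libraries, 10.7, 24.4, 31.8 and 28.5 with EP, 19.5, 15.6, 15.4 and 24.96 with EP+TPA and 21.9, 18.9, 20.6 and 19.7 with EP+RU486, with both antagonist groups below every sham library (-0.75 ± 0.26, and -0.58 ± 0.27). MVD read 4.17, 6.35, 4.77 and 6.23 in the sham libraries, 3.67, 4.89, 3.55 and 2.27 with EP, 3.08, 3.32, 2.30 and 3.24 with EP+TPA and 4.12, 4.94, 3.18 and 1.59 with EP+RU486, with EP+TPA below every sham library and the other groups overlapping sham (-0.58 ± 0.26 for EP+RU486 against sham). SREBF2 was at -0.54 ± 0.23 for EP against sham and 0.48 ± 0.23 for EP+TPA against EP. For EP+RU486 against EP the smallest sterol p belonged to PMVK (-0.50 ± 0.19) and SC5D (0.38 ± 0.22), and between the antagonists to SC5D (-0.43 ± 0.23) and NSDHL (-0.34 ± 0.18).

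Among the fatty acid genes, ELOVL1, which extends saturated chains, read 48.03, 43.05, 54.95 and 53.4 in the sham libraries, 38.8, 34.6, 41.1 and 35.9 with EP, 38.6, 54.5, 39.2 and 47.7 with EP+TPA and 41.4, 35.9, 43.9 and 39.2 with EP+RU486 (log2 fold change -0.44 ± 0.14, adjusted p = 0.821 for EP, and -0.35 ± 0.14 for EP+RU486, against sham). FADS1 read 37.8, 35.6, 62.95 and 34.6 in the sham libraries, 18.02, 33.1, 17.6 and 47.5 with EP, 30.6, 32.2, 37.6 and 42.6 with EP+TPA and 28.5, 27.5, 28.9 and 39.1 with EP+RU486, where sham mouse 326 was the highest and sham, EP and EP+TPA overlapped. ACSL3 read 18.7, 33.7, 44.3 and 35.7 in the sham libraries, 13.3, 33.7, 27.6 and 33.9 with EP, 28.1, 17.8, 23.97 and 36.7 with EP+TPA and 15.7, 21.8, 19.5 and 30.7 with EP+RU486, and every group overlapped the others. ACSS2 read 11.6, 3.73, 2.56 and 15.1 in the sham libraries, 22.7, 2.11, 3.04 and 2.92 with EP, 2.96, 2.99, 2.40 and 4.54 with EP+TPA and 2.44, 2.94, 2.01 and 4.47 with EP+RU486. Its 3 highest libraries were EP mouse 306 and sham mice 334 and 305, and the comparisons with sham did not pass (-0.88 ± 0.59 for EP+TPA, -1.10 ± 0.60 for EP+RU486). ACACB for EP+RU486 against EP was at 0.66 ± 0.57, ACSL3 at -0.25 ± 0.22, and ELOVL1 and FADS1 for EP+TPA against EP at 0.28 ± 0.14 and 0.29 ± 0.25. ELOVL1 and ACACB differed between the antagonists by 0.20 and -0.45. INSIG1 was at -0.46, SREBF1 at -0.25, SCD2 at -0.29 and SCD1 at -1.92 ± 2.12 for EP against sham.

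In MSC, 3 of the 32 genes had their 4 highest libraries in the 4 that were richest in adipocyte markers (3 of sham and 1 of EP), 5 had 3 of them there, and 24 had 2 or fewer. Sham mouse 305 and EP mouse 306 of these 4 were adjusted with LP and sham mice 310 and 334 were not, so the orders are also given within each set. None of these counts was made over all genes, so whether the 32 genes differ from other genes in this was not tested. SCD1, the desaturase most typical of fat cells, read 431, 195, 0 and 459 in the sham libraries, 759, 45.7, 22.1 and 0 with EP, 77.7, 29.98, 0 and 65.5 with EP+TPA and 26.1, 64.7, 25.6 and 10.7 with EP+RU486. The 4 highest SCD1 libraries were EP mouse 306 and sham mice 334, 305 and 310, and these were also the 4 with the highest sum of 12 adipocyte markers, at 13190, 4908, 4624 and 3201. SCD1 was at 0 in sham mouse 326, EP mouse 327 and EP+TPA mouse 328, whose adipocyte sums were 4.076, 1.482 and 325.0 and where the defining genes ADIPOQ, PLIN1, CIDEC, LEP and CFD were all at their lowest value. INSIG1 and ELOVL5, an elongase of polyunsaturated chains, had their 4 highest MSC libraries in the same 4 mice as SCD1. INSIG1 lay between 20.7 and 33.0 in those 4 and between 4.04 and 20.03 in the other 12, and ELOVL5 between 35.5 and 56.3 against 9.22 to 34.0. FASN, THRSP, ACLY, ACSS2 and IDI1 had 3 of their 4 highest libraries there, with FASN at 104, 4.02, 28.1 and 57.7 in sham and 135, 15.4, 15.7 and 18.1 with EP. THRSP read 109, 1.98, 0 and 111 in the sham libraries, 260, 11.7, 6.58 and 0 with EP, 38.7, 10.98, 0 and 26.2 with EP+TPA and 14.9, 59.95, 9.17 and 7.55 with EP+RU486. Within the 6 libraries adjusted with LP, the 2 with the most adipocyte markers (mice 306 and 305) were the 2 highest for 13 genes, and within the other 10 the 2 with the most (mice 334 and 310) were the 2 highest for 5. SCD1, INSIG1 and ELOVL5 were the 3 genes for which both held. For MVK, FDPS, EBP, NSDHL, SREBF1, FADS1 and FADS2 none of the 4 libraries was among the 4 highest. FADS2 was the only gene of the 32 whose levels in the 2 sets did not overlap, at 23.6 to 45.7 in the 6 libraries and 51.4 to 113.8 in the other 10. Its 4 highest libraries were therefore all among the 10, and its order over all 16 is not read further. Across the 12 marker genes, 0 to 11 were at their lowest value in a library, and the part of adipocyte RNA in these values was not tested.

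**Figure D5:**
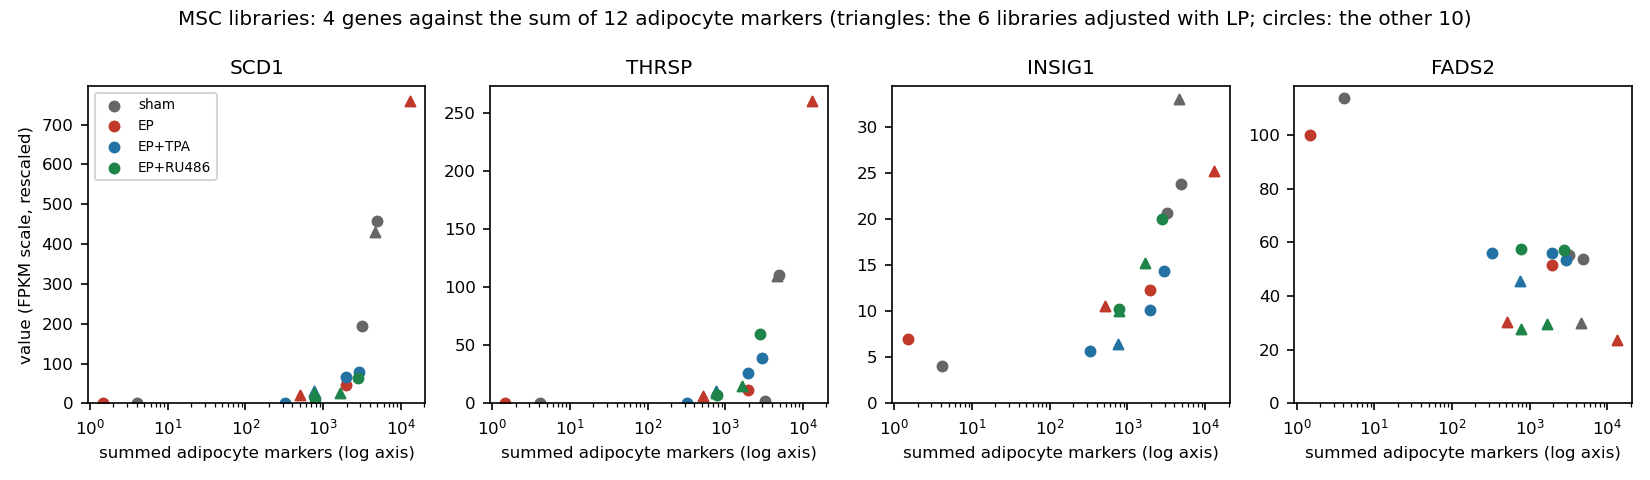
Value of SCD1, THRSP, INSIG1 and FADS2 in the 16 MSC libraries (vertical, rescaled FPKM scale, linear from 0) against the summed level of 12 adipocyte markers (horizontal, log axis), coloured by treatment; triangles are the 6 libraries adjusted with LP and circles the other 10, adjusted apart. SCD1 and INSIG1 are highest in the 2 triangles and the 2 circles with the highest marker sums, and every FADS2 triangle lies below every circle.

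The MSC and LP fractions of the same 6 mice could be compared in level, since their 12 libraries fall in 1 such set (1 sham mouse, 2 with EP, 1 with EP+TPA and 2 with EP+RU486). The sterol genes called were all lower in MSC, and the called fatty acid genes went both ways. Of the sterol genes, 3 were lower (DHCR7, LSS and NSDHL) and none higher. Of the fatty acid genes, 4 were lower (FADS2, SREBF1, FADS1 and ACSL3) and 2 higher (ELOVL5 and THRSP). Of the 11923 genes tested, 21.9% were higher in MSC and 17.6% lower. So 3 lower genes among 16 sterol genes is a share close to that of all genes. Over both branches 9 of 32 genes were called, a smaller share than among all genes. The branch medians were -0.29 for sterol and -0.02 for fatty acid genes, against 0.01 for all genes.

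FADS2, the first desaturase of polyunsaturated chains, was at 31.2 ± 7.54 against 86.9 ± 12.3 (mean ± SD, MSC against LP, n = 6 each), with no overlap (log2 fold change -1.47 ± 0.13, adjusted p = 3.40e-05). SREBF1 was at 21.6 ± 5.07 against 47.5 ± 16.2 (-1.07 ± 0.15, adjusted p = 0.000468), and FADS1 at 27.2 ± 7.98 against 47.5 ± 17.8 (-0.75 ± 0.14, adjusted p = 0.00242). DHCR7, which makes cholesterol in the last step of one route, was at 3.31 ± 1.04 against 7.27 ± 0.925 (-0.97 ± 0.16, adjusted p = 0.00156), without overlap, and so was LSS at 1.84 ± 0.329 against 3.80 ± 0.805 (-0.75 ± 0.13, adjusted p = 0.00153). NSDHL, a sterol demethylation enzyme, was at 4.90 ± 1.15 against 7.26 ± 0.775 (-0.50 ± 0.14, adjusted p = 0.0202) and ACSL3 at 18.7 ± 4.88 against 36.9 ± 9.01 (-0.94 ± 0.20, adjusted p = 0.00485). ELOVL5 was higher in MSC, at 31.9 ± 14.8 against 14.3 ± 1.72 (0.99 ± 0.23, adjusted p = 0.00839), and THRSP at 68.5 ± 102 against 5.27 ± 0.938 (2.14 ± 0.77, adjusted p = 0.0498), the latter with a range of 6.58 to 259.8 in MSC. INSIG1 (0.60 ± 0.32), SREBF2 (-0.08 ± 0.16), SCD1 (1.25 ± 0.75) and SCD2 (-0.31 ± 0.36) did not pass. With the mouse as a replicate block, a paired fit, 10 members were called in place of 9, the added one being ACACB (0.91, adjusted p = 0.0260).

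THRSP lost its call without mouse 305, 308, 323 or 324 (adjusted p 0.0638 to 0.137) and NSDHL without mouse 308, 323 or 324 (0.0533 to 0.0902). Mice 305 and 306 gave 2 of the 4 MSC libraries with the highest adipocyte marker sums. With both left out, a choice made after seeing the data, 15 members were called, 2 higher and 13 lower, and THRSP was at 0.91 (adjusted p = 0.0167). Of all genes 16.8% were then higher and 13.0% lower. ME1 (-1.48, adjusted p = 0.00167), FDPS (-0.65, adjusted p = 0.0278), MVD (-0.52, adjusted p = 0.0460), IDI1 (-0.60, adjusted p = 0.0390), ACACA (-0.55, adjusted p = 0.0421) and ELOVL6 (-0.76, adjusted p = 0.0322) were then among the lower genes. On the deposited values 17 members were lower and none higher, but the median of all genes moved by -0.49 and 18.9% of all calls were higher, against 55.4% after rescaling. ELOVL5 was at 0.43 there (adjusted p = 0.223).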

How the data were processed

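RNA-seq was made from 47 sorted mammary libraries of 20 mice. The tools and build named per the submitters' processing notes are mm9, STAR, DESeq2 and Cufflinks; versions and settings are not given in the sources used here. The deposited values are on the FPKM scale, are not whole numbers and carry no counts, so depth is unknown and the number of libraries limits the precision. Within each of 3 sets of libraries (15 LM; 16 LP with 6 MSC; the other 10 MSC), many genes share 1 lowest value, which the authors' adjustment by gene may have left; that step is inferred from the values. Of 22007 symbols, 27 that look like dates were left out.

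Values were rescaled within a set by median ratios (factors 0.527 to 1.32). Genes needed a value of at least 1, and a value above the shared lowest, in 3 or more libraries. limma 3.58.1 in R 4.3.3 tested log2(value + 1) with a trend and robust variance, all 4 treatments of a fraction in 1 fit and set as a term in MSC. Fold changes on this scale understate the change of low genes. p-values were adjusted (Benjamini-Hochberg) over all genes tested, and those under 0.05 were called. The code was tested on simulated data.

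Libraries of a group are different mice. Libraries of 6 mice gave MSC and LP in 1 set; the pairing comes from the animal, and residuals of the same mouse correlated between -0.01 and 0.35. All members were counted. Named with tests were the called ones, or the 2 per branch with the smallest p; given by library were the 4 per branch and fraction with the smallest p across treatments, with INSIG1, SREBF1, SREBF2, SCD1 and SCD2 followed throughout. Some other members are given by library or value because a comparison turned on them, chosen after their values were seen. The members and all gene lists were chosen with earlier results of these data known. Alternatives were the deposited values, a pseudocount of 0.1, no filter, library weights, only the groups compared, each library left out and the mouse as a block. Leaving out mice 305 and 306 was chosen after seeing the data.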

Additional observations from a re-analysis of the deposited data

Results flagged for a closer look

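Of 88 groups of 4 libraries looked at for a library far from the others, 6 held one, and chance gives about 1 in 20. ELOVL6 in LM was 2.99 in EP+RU486 mouse 313, against 4.79 to 5.13 in the other 3. SC5D in LM was 7.06 in EP+TPA mouse 336, against 5.91 to 6.09. SCD2 in LP was 8.25 in sham mouse 305, against 3.70 to 4.17. The MSC groups mix libraries from 2 separately adjusted sets. FADS1 in MSC was 63.0 in sham mouse 326, against 34.6 to 37.8, and 39.1 in EP+RU486 mouse 329, against 27.5 to 28.9. ACSS2 in MSC was 22.7 in EP mouse 306, the library with the highest adipocyte marker sum, against 2.11 to 3.04.

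FDFT1 lay below sham in LM and above it in LP with EP+TPA, and only the LM difference passed the test. In LM every EP+TPA library lay below every sham library, with a difference of means of -6.69, and in LP every EP+TPA library lay above every sham library. The LP gap was narrow, with the lowest EP+TPA library at 10.51 (mouse 312) and the highest sham library at 10.35 (mouse 305). The LM call was lost without some single libraries, as given above. This difference between the fractions was not tested, and how often all genes show such an opposite order was not counted.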

How the results depend on the processing

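Of the alternative values for the members called or named in each comparison, 1173 kept direction and side of the threshold, 155 lost a call, 1 gained one and 3 reversed. The 1173 include members named in comparisons where no member was called, which had no call to lose. Over all members in all comparisons, 155 calls were lost and 137 gained. The reversals, all uncalled in MSC and on the deposited values, were ELOVL1 (-0.11) and FADS1 (-0.11) for EP+TPA against EP and ELOVL1 (-0.009) for EP+TPA against EP+RU486; the cause was not tested. Library weights raised the number of members called, in LM from 5 to 12 for EP against sham, 1 to 5 for EP+TPA against EP, 7 to 13 for EP+TPA against sham and 8 to 20 for EP+RU486 against sham; in LP from 6 to 10 for EP+TPA against EP, 2 to 6 for EP+TPA against sham and 4 to 11 for EP+RU486 against sham; and in MSC from 0 to 2 for EP against sham. Calls over all genes rose too, for instance from 10.2% to 17.6% higher and 9.43% to 17.4% lower for EP against sham in LM, and from 10.3% to 22.4% and 11.5% to 20.5% for EP+RU486 against sham. With only the groups compared, fewer libraries set the spread, and the counts were 0 and 3 for EP+TPA against EP and against sham in LM, and 3 for EP+TPA against EP and 8 for EP+RU486 against sham in LP. Of all genes in LM, 0% were then higher and 0.018% lower against EP, and 3.70% and 6.82% against sham. In LP the shares were 3.43% and 4.7% for EP+TPA against EP, and 8.19% and 10.7% for EP+RU486 against sham. The deposited values gave 2 for EP+TPA against EP in LM, 7 for EP+RU486 against sham in LP and 17 for MSC against LP. Leaving out 1 library gave, in LM, 2 to 6 for EP against sham, 1 to 6 for EP+TPA against EP, 3 to 6 for EP+RU486 against EP, 3 to 9 for EP+TPA against sham and 4 to 9 for EP+RU486 against sham; in LP, in that order, 10 to 13, 3 to 7, 6 to 8, 2 to 3 and 2 to 4; 0 throughout MSC and between the antagonists; and 7 to 12 for MSC against LP. Leaving out a library also moved the shares of all genes. For EP against sham in LM these ran from 4.25% higher and 3.49% lower without EP mouse 327 to 12.2% and 11.8% without EP mouse 311. A replicate block for the mouse gave 10 in place of 9 for MSC against LP, where 22.5% of all genes were higher and 16.6% lower. Without mice 305 and 306, 15 were called, where the shares of all genes were 16.8% and 13.0%. FASN in LM lost its calls against sham with a pseudocount of 0.1 (adjusted p 0.0567 to 0.0605).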
